A study of Mus musculus with 6 samples.

Results

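The BCL2 family sets whether a blood cell lives or dies at its mitochondria. Here 10 of its genes were followed in myeloid colonies labelled wild type or Psip1-KO. They were chosen by symbol: the survival genes Bcl2, Bcl2l1, Mcl1, Bcl2a1b and Bcl2a1d, the death-promoting genes Bcl2l11, Bad and Bid, and the effectors Bax and Bak1. All 10 matched an identifier among the 46983 genes counted. The colonies grew from lineage-depleted bone marrow cells of C57BL/6 mice aged 8 to 11 weeks, in a methylcellulose medium that supplied stem cell factor, IL-6 and IL-3, and were harvested after 6 to 7 days. The KO group (3 libraries) is labelled Psip1-KO, with PsipVav/Vav given as its allele. The WT group (3 libraries) is labelled wild type, although the series design gives it as PsipFl/Fl, a floxed allele. Psip1 encodes LEDGF, a protein that holds MLL and its partner menin on chromatin, and the series title asks whether it is needed in normal blood formation. Whether each library is a different animal is not stated, so p-values measure only the spread between these libraries.

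BAX and BAK form the pores that release cytochrome c from mitochondria. The survival proteins BCL2, BCL-xL (from Bcl2l1), MCL1 and A1 (from the Bcl2a1 genes) hold them in check. BH3-only proteins such as BIM (from Bcl2l11), BAD and BID carry a short segment, the BH3 domain, that binds the survival proteins or the effectors. In mice MCL1 is needed by granulocytes and stem cells, and BIM removes myeloid cells that lose cytokine signals.

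The BH3 segment is shown because it is the part by which the members bind each other, and it shows how far they differ in a shared element. A script searched each longest coding sequence of GENCODE M21 for codons of leucine, 3 other residues, glycine or serine, and aspartate. It found exactly 1 match in each of 8 members. Capitals mark the codons of leucine, of glycine (serine in Bad) and of aspartate, 5′ to 3′.
Bcl2: accCTCcgccgggctGGGGATgacttc
Bcl2l1: gcgCTGagagaggcaGGCGATgagttt
Mcl1: accCTGcggcgcgtgGGCGACggcgtg
Bcl2l11: gagCTGcggcggatcGGAGACgagttc
Bad: gagCTCcgaaggatgAGCGATgagttt
Bid: catCTCgcccaaataGGCGATgagatg
Bax: tgtCTCcggcgaattGGAGATgaactg
Bak1: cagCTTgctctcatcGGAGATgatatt
Bcl2a1b and Bcl2a1d had 0 matches, which says only that this pattern is not in them.

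The Bcl2a1 genes are near-identical copies on chromosome 9, and that limits how they can be counted. Bcl2a1b (89199209 to 89207827, plus strand, GRCm38 as all coordinates here) and Bcl2a1d (88723285 to 88731914, minus strand) differ at 6 of the 516 bases of their coding sequences, an identity of 98.8%. The first 90 coding bases of each are shown because they hold 2 of these differences, in capitals.
Bcl2a1b: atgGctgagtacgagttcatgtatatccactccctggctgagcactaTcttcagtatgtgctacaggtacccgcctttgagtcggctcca
Bcl2a1d: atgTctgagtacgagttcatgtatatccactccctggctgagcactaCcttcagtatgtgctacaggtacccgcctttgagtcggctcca
Of all windows of 50 bases in their transcripts, 79.2% for Bcl2a1b and 79.5% for Bcl2a1d also occur in a transcript of another gene. These genes are the other Bcl2a1 copies and Gm29094, which is annotated over Bcl2a1b on the same strand. Of windows of 100 bases, 56.8% for Bcl2a1b and 54.7% for Bcl2a1d were shared. Reads that fit several places equally well are not in the counts, nor are reads over several genes of the same strand. The values of these genes therefore rest on the stretches that differ. For Bcl2a1b they rest only on those outside Gm29094, if the annotation used for counting held that gene. For Mcl1, Bcl2l1, Bad, Bid and Bak1 no window of 50 bases was shared. For Bax 8.51% of windows of 50 bases were shared with Gm45808, a gene annotated over it on the same strand.

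Depth decided what could be seen. The gene read totals were 12714022, 7056614 and 15569088 in KO replicates 1 to 3, against 14332364 and 10418101 in WT replicates 1 and 2, and these 5 are called the deep libraries. WT replicate 3 held only 27909, where 1 read was worth 29.9 normalised CPM (CPM after TMM scaling). For a gene with 0 reads there, the floor used is 3 reads, or 89.6 CPM. Its values are therefore given as reads, and these limits cover counting error only. KO replicate 2 stood apart by its mitochondrial share of 15.7% of gene reads and WT replicate 3 by 9.52%, against 1.26% to 1.84% in the other libraries. Psip1 was at 14.8, 17.6 and 16.3 CPM in KO, against 89.3 and 70.0 CPM in WT replicates 1 and 2 and 3 reads in WT replicate 3. The genotypes did not overlap among the deep libraries, and the fitted log2 fold change was -2.32 (SE 0.32, edgeR adjusted p = 0.0599). The labels do not say which part of the gene is deleted.

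Myeloid markers were abundant in each deep library. Mpo, the myeloperoxidase of neutrophil granules, ran from 559 to 2774 CPM in KO and was 720 and 3036 CPM in WT replicates 1 and 2. The mast cell protease gene Cpa3 ran from 1156 to 3453 CPM in KO and was 2488 and 854 CPM in the same WT libraries. Its log2 fold change of KO over WT (0.75) was the highest of the mast cell and basophil list. Of the 14 markers tested there, 5 were positive and 9 negative (median -0.21). Of the T cell receptor complex genes, Cd3e had 0 reads in every library, and Cd3d had 16, 0 and 2 reads in KO replicates 1 to 3, against 1, 4 and 0 reads in WT replicates 1 to 3. The whole T and NK cell list summed to 208, 291 and 386 CPM in KO, against 545 and 270 CPM in WT replicates 1 and 2.

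Within a library the members kept nearly the same order of level, with Mcl1 on top. Levels of different genes are compared here as CPM per kilobase of annotated exon. On that scale Mcl1 averaged 143 ± 21.3 in KO (SD, n = 3) and 150.4 in WT replicates 1 and 2 (mean of both), and it ranked first in all 5 deep libraries. Bax (89.8 ± 9.74 in KO, 97.5 in WT) and Bak1 (81.2 ± 9.98 in KO, 88.8 in WT) held the next 2 places and changed order between libraries, so they were not separable.

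Bcl2l1 (26.3 ± 3.55 in KO, 23.6 in WT) and Bid (24.7 ± 3.04 in KO, 22.8 in WT) followed, within each other's spread. Bcl2l11 (16.2 ± 6.09 in KO, 15.01 in WT) and Bad (9.89 ± 1.15 in KO, 12.6 in WT) took places 6 and 7 and exchanged them in WT replicate 2. At the bottom were Bcl2 (3.35 ± 1.97 in KO, 2.62 in WT), Bcl2a1b (3.65 ± 2.39 in KO, 2.26 in WT) and Bcl2a1d (1.39 ± 0.94 in KO, 1.67 in WT), whose order varied. The exon length is the union over all annotated transcripts, which need not all be in use here, and for the Bcl2a1 copies the shared reads are missing.

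**Figure D1:**
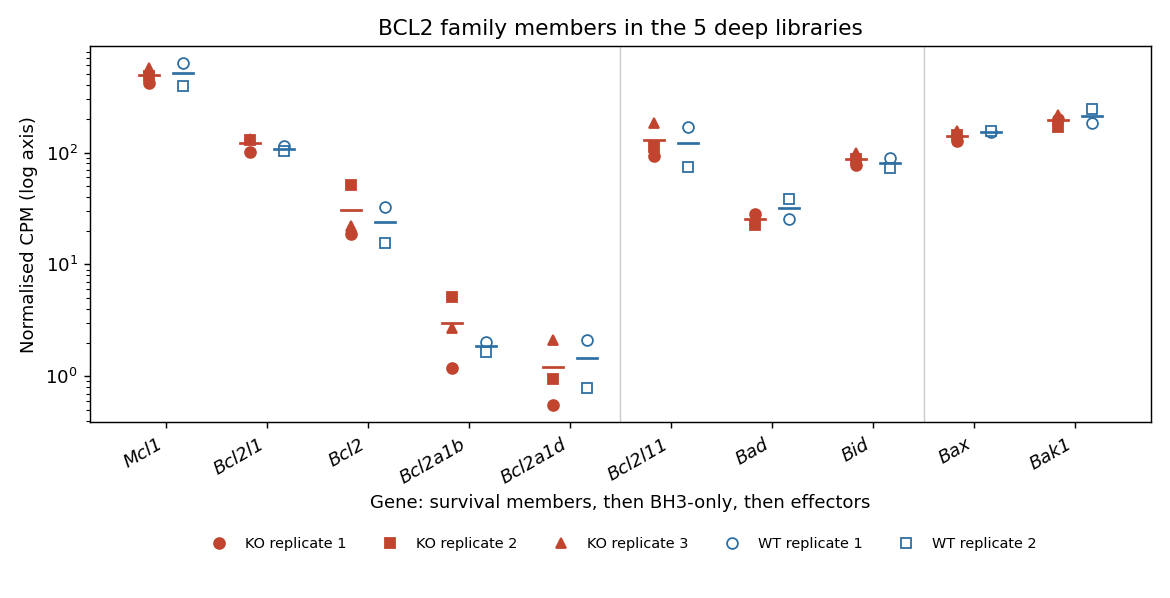
Normalised CPM (log axis) of the 10 members in each deep library, KO replicates 1 to 3 in red and WT replicates 1 and 2 in blue, with a bar at each mean; WT replicate 3 is left out because 1 read there is worth 29.9 CPM. Mcl1 is the highest at 397 to 631 CPM, the Bcl2a1 copies are the lowest at 0.551 to 5.06 CPM, and the genotypes overlap for each gene.

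None of the 10 members passed the test between the genotypes. All passed the low-count filter and were tested. Bcl2a1d passed it only with WT replicate 3 counted in, where its 1 read was worth 29.9 CPM. Of the members, 6 had a positive and 4 a negative log2 fold change of KO over WT. The median was 0.12, against 0.01 over all 12292 tested genes, of which 52.0% were positive. The threshold was 0.05 after Benjamini-Hochberg adjustment of edgeR's quasi-likelihood test, and 0 members passed it, where 0% of all tested genes did. At an unadjusted p of 0.05 the count was again 0, against 1.45% of all tested genes (178 genes). DESeq2 also called 0 members, against 0.0045% of the genes with an adjusted p. At an unadjusted p of 0.05 it had 0 members, against 0.171% of its genes (38 genes). In no member did the 3 KO libraries and WT replicates 1 and 2 separate without overlap, which 8.66% of all tested genes did. The 95% intervals of the fold changes are wide, so these values set limits rather than show that the levels are alike.

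**Figure D2:**
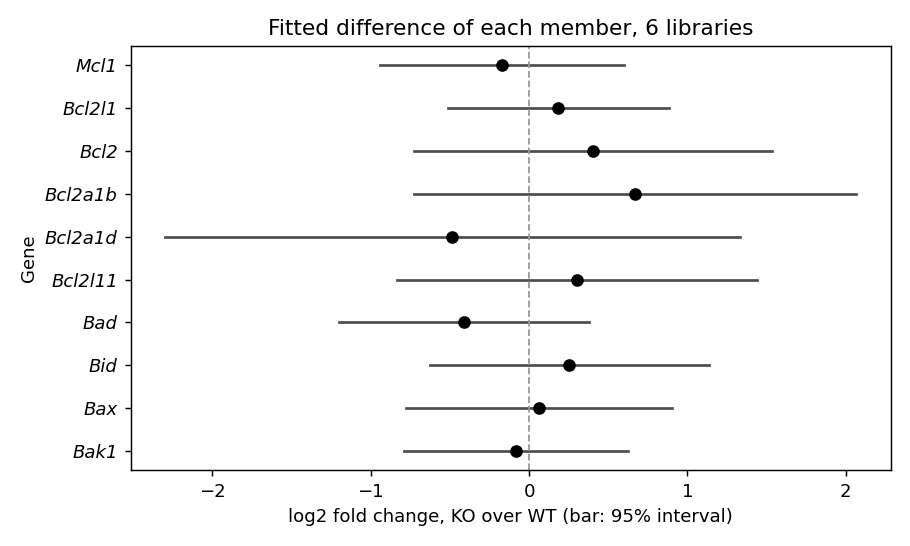
Fitted log2 fold change of KO over WT for each member from edgeR on 6 libraries (points), with its 95% interval (bars). The estimates run from -0.48 for Bcl2a1d to 0.67 for Bcl2a1b, and every interval crosses 0.

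Mcl1, the short-lived survival protein's gene on chromosome 3 (95658788 to 95663176, plus strand), was read most. It stood at 422, 479 and 567 CPM in KO replicates 1, 2 and 3, against 631 and 397 CPM in WT replicates 1 and 2, and it had 22 reads in WT replicate 3. The KO libraries lay between the deep WT libraries. KO over WT came to a log2 fold change of -0.17 (SE 0.35, edgeR adjusted p = 1.0), with an interval from 0.52-fold to 1.51-fold. In WT replicate 3 the 22 reads have an exact 95% interval of 13.8 to 33.3, which holds the 17.2 reads that the mean of the deep WT libraries would give.

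Bcl2l1 (chromosome 2, 152780668 to 152831728, minus strand), which encodes BCL-xL, was the steadiest survival gene. Its values were 102, 129 and 131 CPM in KO, against 114 and 103 CPM in WT replicates 1 and 2, with 3 reads in WT replicate 3. KO replicates 2 and 3 were the highest and KO replicate 1 the lowest, a span of 1.29-fold over the deep libraries. The fitted log2 fold change was 0.19 (SE 0.32), with an interval from 0.70-fold to 1.85-fold.

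Bcl2, the founding survival gene (chromosome 1, 106538178 to 106714274, minus strand), varied far more. It stood at 18.7, 51.4 and 21.8 CPM in KO, against 32.6 and 15.5 CPM in WT replicates 1 and 2, and it had 0 reads in WT replicate 3. KO replicate 2 was the highest library and WT replicate 2 the lowest, 3.32-fold apart. The log2 fold change of 0.40 (SE 0.52) was -0.18 without KO replicate 2, 0.04 without WT replicate 2 and 1.10 without WT replicate 1.

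Bcl2a1b and Bcl2a1d encode copies of A1, a survival protein of myeloid cells. Bcl2a1b had 15, 32 and 41 reads in KO (1.18, 5.06 and 2.71 CPM), against 28 and 17 reads in WT replicates 1 and 2 (2.03 and 1.66 CPM) and 0 in WT replicate 3. KO replicate 2 was the highest and KO replicate 1 the lowest, so that KO libraries enclosed the WT ones. The log2 fold change was 0.67 (SE 0.64), and 0.08 without KO replicate 2.

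Bcl2a1d had 7, 6 and 32 reads in KO (0.551, 0.949 and 2.11 CPM), against 29 and 8 reads in WT replicates 1 and 2 (2.10 and 0.783 CPM) and 1 read in WT replicate 3. KO replicate 3 and WT replicate 1 were high and close to each other, and the other deep libraries were low. The log2 fold change was -0.48 (SE 0.83), and it turned to 0.12 without WT replicate 1. Without WT replicate 3 it was -0.25. With so few reads, neither copy allows a firm statement.

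The better read copy was Bcl2a1a, which is not among the 10 and shares 69.0% of its windows of 50 bases with other genes. It had 8.10, 9.49 and 8.18 CPM in KO, against 4.72 and 6.76 CPM in WT replicates 1 and 2, and 0 reads in WT replicate 3. The deep libraries did not overlap, as in 8.66% of all tested genes. The log2 fold change of 0.61 (SE 0.44, edgeR adjusted p = 1.0) did not pass. Summed over the 4 copies, the level was 10.1, 15.7 and 13.7 CPM in KO, against 9.14 and 9.40 CPM in WT replicates 1 and 2. All KO libraries lay above these WT libraries in that sum, and no test was made of it. In WT replicate 3 the copies had 1 read, worth 29.9 CPM, so that library does not place the WT level below KO.

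Bcl2l11 (chromosome 2, 128126038 to 128162547, plus strand), the gene of BIM, was the most variable of the 3 BH3-only members. It stood at 92.7, 113 and 186 CPM in KO, against 168 and 73.5 CPM in WT replicates 1 and 2. KO replicate 3 and WT replicate 1 were the highest, and the span within WT (2.28-fold) was not smaller than that within KO (2.002-fold). WT replicate 3 had 0 reads, where the mean of the deep WT libraries would give 4.04 and the floor is 3. In the fit, the log2 fold change was 0.30 (SE 0.52), with an interval from 0.56-fold to 2.71-fold. It moved to 1.10 without WT replicate 1 (unadjusted p = 0.0389, adjusted p = 0.83) and to -0.03 without KO replicate 3.

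Bad (chromosome 19, 6941861 to 6951899, plus strand) encodes a BH3-only protein that phosphorylation by growth factor signals inactivates. Its levels were 28.3, 22.5 and 25.1 CPM in KO, against 25.6 and 38.7 CPM in WT replicates 1 and 2, with 2 reads in WT replicate 3. WT replicate 2 was the highest, and WT replicate 1 lay within the KO range. Its log2 fold change of -0.41 (SE 0.36, edgeR adjusted p = 1.0) had the smallest unadjusted p of the 10 members. It was -0.15 without WT replicate 2 and -0.64 without WT replicate 1.

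Bid (chromosome 6, 120891930 to 120916853, minus strand) encodes the protein that caspase-8 cleaves to link death receptors to mitochondria. It stood at 77.6, 86.7 and 99.0 CPM in KO, against 89.8 and 72.4 CPM in WT replicates 1 and 2, with 0 reads in WT replicate 3. WT replicate 2 was the lowest deep library and KO replicate 3 the highest, 1.37-fold apart. Its fitted log2 fold change was 0.25 (SE 0.40), and it ran from 0.11 without WT replicate 3 to 0.54 without WT replicate 1. Bid overlaps the family member Bcl2l13, which lies on the other strand, so that counts without strand cannot tell them apart there. Of the stranded reads over Bid, 6.28% were on the other strand and not counted.

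Bax, an effector gene and the most even member over the deep libraries (chromosome 7, 45461697 to 45466898, minus strand), had 126, 143 and 156 CPM in KO, against 153 and 155 CPM in WT replicates 1 and 2, and 1 read in WT replicate 3. The deep libraries spanned only 1.24-fold. Its log2 fold change was 0.06 (SE 0.38) and turned to -0.12 without WT replicate 3, where the mean of the deep WT libraries would give 5.14 reads and 1 was found.

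Bak1, the other effector gene (chromosome 17, 27019810 to 27029009, minus strand), had 199.6, 169.7 and 217 CPM in KO, against 185 and 243 CPM in WT replicates 1 and 2, and 6 reads in WT replicate 3. KO replicate 2 was the lowest and WT replicate 2 the highest, and the rest lay between. Between the genotypes the log2 fold change was -0.08 (SE 0.32), with an interval from 0.58-fold to 1.54-fold. It became 0.01 without KO replicate 2 and 0.12 without WT replicate 2.

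Ratios of death to survival genes within a library, and a ratio among survival genes, are given as a description, on a log2 scale of CPM. Bax over Bcl2 was 2.75, 1.47 and 2.84 in KO, against 2.23 and 3.32 in WT replicates 1 and 2. The low value of KO replicate 2 comes with the high Bcl2 of that library. Bcl2l11 over Mcl1 was -2.19, -2.09 and -1.61 in KO, against -1.91 and -2.43 in WT replicates 1 and 2. For each of these death to survival ratios the difference between the genotype means (-0.42 and 0.21) was smaller than the gap between the deep WT libraries (1.09 and 0.52). Bcl2a1b plus Bcl2a1d over Mcl1, all survival genes, was -7.93, -6.32 and -6.88 in KO, against -7.25 and -7.34 in WT replicates 1 and 2. For that ratio the difference between the genotype means (0.26) was larger than the gap between the deep WT libraries (0.089). Its KO values spanned 1.61 and enclosed the WT ones.

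**Figure D3:**
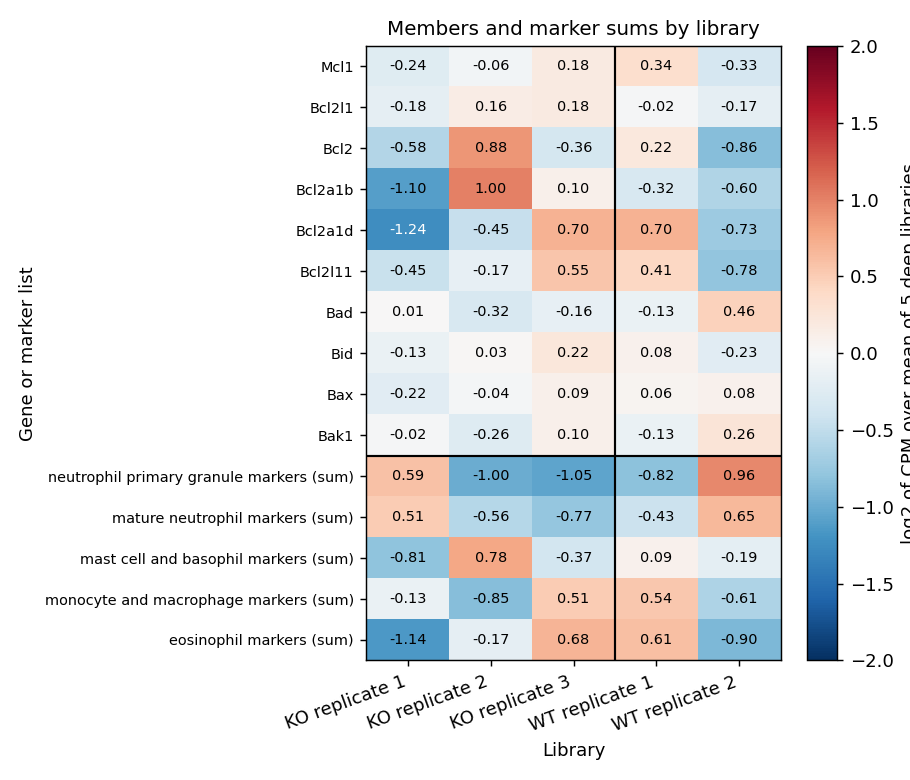
Level of each member and of summed marker lists in the 5 deep libraries, as log2 of CPM over the mean of those libraries (columns: KO replicates 1 to 3, then WT replicates 1 and 2). Bcl2l11 is at 0.55 in KO replicate 3 and 0.41 in WT replicate 1, where the eosinophil markers are at 0.68 and 0.61, and Bcl2 is at 0.88 in KO replicate 2, where the mast cell and basophil markers are at 0.78.

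The members varied between libraries in ways that crossed the genotypes. Mcl1, Bcl2a1d, Bcl2l11 and Bid had their highest levels in KO replicate 3 and WT replicate 1, a pattern that 29.3% of all tested genes shared. These libraries were also the most alike over all tested genes (Spearman correlation 0.991 across genes, which are not independent). Their summed monocyte and macrophage markers were the highest, at 13043 CPM in KO replicate 3 and 13252 CPM in WT replicate 1, where the other deep libraries had 5078 to 8318 CPM. The same held for the eosinophil markers, at 1826 CPM in KO replicate 3 and 1742 CPM in WT replicate 1, where the others had 517 to 1014 CPM. Between the genotypes 0 of 15 monocyte and macrophage, 0 of 8 eosinophil, 0 of 14 mast cell and basophil and 0 of 11 primary granule markers tested were called by edgeR or by DESeq2. At an unadjusted p of 0.05 the counts were 3, 1, 3 and 0 with edgeR and 2, 0, 2 and 0 with DESeq2, in the same order of lists. The shares over all genes were 1.45% with edgeR and 0.171% with DESeq2. Log2 fold changes ran from -2.35 to 1.33 in the monocyte and macrophage list. In the mast cell and basophil list they ran from -2.53 to 0.75.

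Neutrophil primary granule markers summed to 8012, 2659 and 2566 CPM in KO replicates 1, 2 and 3, against 3005 and 10302 CPM in WT replicates 1 and 2. They were high in KO replicate 1 and WT replicate 2 and low in the other deep libraries. Bcl2 and Bcl2a1b were highest in KO replicate 2, as were 26.8% of all tested genes. That library had the highest sum of mast cell and basophil markers (10437 CPM, where the other deep libraries had 3472 to 6455 CPM). It was also the library with the 15.7% mitochondrial share. Its dendritic cell markers (753 CPM, where the others had 346 to 468 CPM) and megakaryocyte markers (1089 CPM, where the others had 597 to 910 CPM) were the highest as well. All 8 dendritic cell markers tested had a positive log2 fold change of KO over WT, with a median of 0.61, but 0 were called and 0 had an unadjusted p under 0.05 with edgeR or DESeq2. Other lists leaned the other way. Of 11 primary granule markers tested 10 were negative (median -0.60), and of 9 erythroid markers 8 were negative (median -0.63). Of these too, 0 were called and 0 had an unadjusted p under 0.05 with either tool. Bad and Bak1 were highest in WT replicate 2, as were 24.9% of all tested genes. Both were lowest in KO replicate 2, as were 27.2% of all tested genes. The part of cell composition or of library quality in these differences was not tested, and in bulk RNA a change in the number of cells of a type cannot be told apart from a change in RNA per cell.

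No other BCL2 family gene passed the test either. Of 17 on the list 10 were deep enough to test, 3 with a positive and 7 with a negative log2 fold change (median -0.10), and edgeR and DESeq2 called 0 of them, with 0 at an unadjusted p of 0.05 in each. Bcl2a1a, Bcl2l13 and Bbc3 were the 3 of these 10 tested genes whose deep libraries did not overlap, against 8.66% of all tested genes. Bok, a BAX relative, had 26, 37 and 8 reads in KO, against 2 and 16 reads in WT replicates 1 and 2 (log2 fold change 1.70, SE 1.03), with KO replicate 3 inside the WT range. It was 0.62 without KO replicate 2 and 4.12 without WT replicate 2. Bcl2l13, a mitochondrial member that overlaps Bid, stood at 77.0, 50.3 and 81.0 CPM in KO, against 86.8 and 106 CPM in WT replicates 1 and 2 (log2 fold change -0.41, SE 0.34). Its deep libraries did not overlap, and it did not pass. Bbc3, which encodes the BH3-only protein PUMA, had 12.7, 13.4 and 12.3 CPM in KO, against 14.3 and 15.1 CPM in WT replicates 1 and 2, with no overlap of the deep libraries and no call. Hrk, another BH3-only gene, had 0 reads in all 6 libraries. Bbc3 and Hrk were named after their values were seen.

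**Figure D4:**
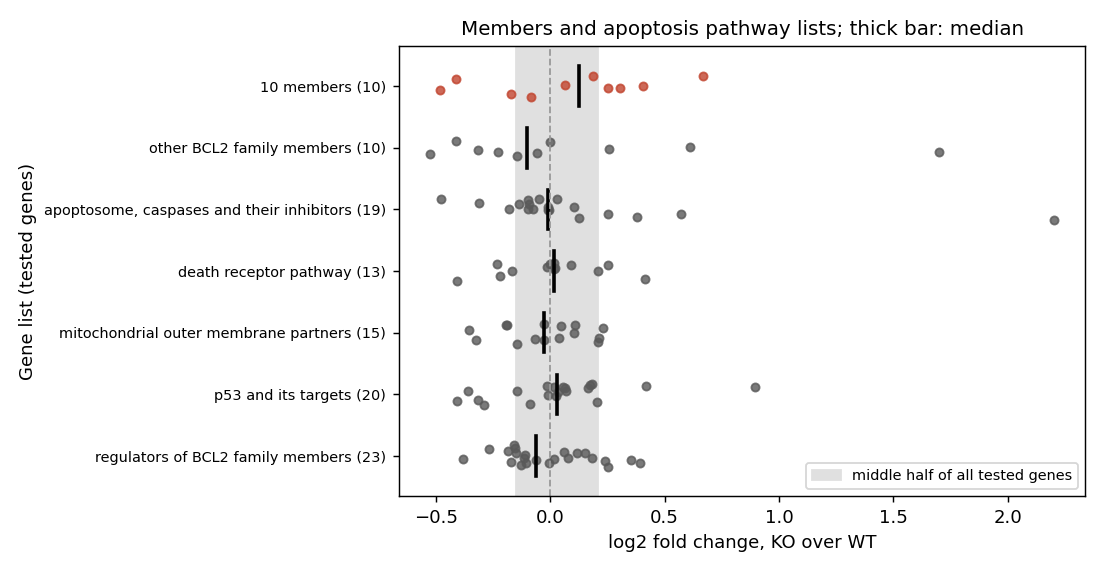
Log2 fold change of KO over WT for each tested gene of the 10 members (red) and of 6 apoptosis lists (grey), with a thick bar at each median and a shaded band from -0.15 to 0.21 between the lower and upper quartiles of all tested genes. The medians lie between -0.10 and 0.12, and Naip5, at 2.20, is the point farthest to the right.

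Downstream of the pores, all 19 genes of the apoptosome, the caspases and their inhibitors were tested, 7 with a positive and 12 with a negative log2 fold change (median -0.01). None passed with edgeR or DESeq2. At an unadjusted p under 0.05 there was 1 gene with edgeR (1.45% of all tested genes) and 0 with DESeq2 (0.171% of its genes). That gene was Naip5, an inflammasome sensor with inhibitor-of-apoptosis repeats. It stood at 4.64, 34.0 and 25.7 CPM in KO, against 4.28 and 3.52 CPM in WT replicates 1 and 2, with 2 reads in WT replicate 3. KO replicates 2 and 3 were high, while KO replicate 1 lay close to the WT libraries. In the fit it was higher in KO by 2.20 on the log2 scale (SE 0.86, edgeR adjusted p = 1.0). Mouse Naip genes are close copies, so this count is uncertain.

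Diablo, whose product frees caspases from their inhibitors, had 31.1, 49.8 and 39.1 CPM in KO, against 32.2 and 32.3 CPM in WT replicates 1 and 2. KO replicate 1 lay just below both WT libraries and the other KO libraries above them. The difference of 0.38 on the log2 scale (SE 0.38) did not pass the test.

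The remaining lists held no call either. Of 13 tested death receptor genes 7 were positive and 6 negative (median 0.01). The kinase gene of necroptosis Ripk3 was at 0.42 (SE 0.38), the death receptor gene Fas at -0.41 (SE 0.50) and Casp8, which cleaves BID, at 0.25 (SE 0.34), all as log2 fold changes. Fas turned to 0.49 without WT replicate 1, and Ripk3 was at 0.09 without KO replicate 2. Of 15 mitochondrial outer membrane partners and their neighbours 7 were positive and 8 negative (median -0.03), with the transporter gene Tspo at -0.35 (SE 0.38), the channel gene Vdac3 at -0.33 (SE 0.37) and the ADP/ATP carrier gene Slc25a4 at 0.23 (SE 0.32).

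Of 20 tested genes of p53 and its targets 12 were positive and 8 negative (median 0.03). The stress cytokine gene Gdf15 had 13.3, 41.0 and 36.6 CPM in KO, against 21.7 and 9.79 CPM in WT replicates 1 and 2 (log2 fold change 0.90, SE 0.53), with overlap between the groups. It was 0.46 without WT replicate 2 and 1.58 without WT replicate 1. Sesn1, a stress-induced p53 target, was at -0.36 (SE 0.39), and at -0.03 without WT replicate 1. Of 23 regulators of the family 10 were positive and 13 negative (median -0.06). Fbxw7, a ubiquitin ligase subunit that targets MCL1, was at 0.35 (SE 0.42), Foxo1, a transcription factor that can activate Bcl2l11, at 0.39 (SE 0.51) and the survival kinase gene Akt1 at 0.25 (SE 0.37). Without WT replicate 2 Foxo1 was at 0.04, and without WT replicate 3 Akt1 was at 0.04. In these 4 lists edgeR and DESeq2 called 0 genes, and 0 had an unadjusted p under 0.05 with either tool.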

How the data were processed

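Polyadenylated RNA was made into stranded libraries, per the labels' protocols. The deposited files hold raw gene counts in 7 files, one for each run, in the layout of STAR's gene counter. Per the submitters' processing notes, STAR 2.5.1b, DESeq2 and the build GRCm38 were used. No source here gives the annotation release. Counts of the strand opposite to the read were used, which held 95.6% to 97.5% of stranded gene reads. Rows that name no gene held 25.6% to 47.8% of reads and were left out. Identifiers were matched without version to GENCODE M21, and 495 found no symbol. Both runs of WT replicate 3 were summed (27351 and 558 reads).

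Genes were filtered (filterByExpr), scaled by TMM and tested with edgeR 4.0.16 (glmQLFit robust, glmQLFTest) in a two-sided comparison of the genotypes with no covariate and adjustment over all tested genes. Each SE is the fold change (log2) over the square root of F. The test was tested on simulated data. Alternatives used other scalings, filters, DESeq2 1.42.0 and fewer libraries. The members and lists were chosen with earlier results of these data known. Named were all members, Psip1, the 3 genes of lowest p per pathway list, and the leading markers, apart from some that are not reported here. Bcl2a1a and the sum of the 4 copies were given more room after their values were seen.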

Additional observations from a re-analysis of the deposited data

How the results depend on the processing

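No member and no gene of the apoptosis lists was called under any alternative tried. Of 140 values of the members over 14 alternatives, 132 kept their sign and 8 turned. Without KO replicate 2, Bcl2 was at -0.18 and Bak1 at 0.012. Without KO replicate 3, Bcl2l11 was at -0.028. Without WT replicate 1, Mcl1 was at 0.025 and Bcl2a1d at 0.12. Without WT replicate 2, Bak1 was at 0.12. Without WT replicate 3, Bax was at -0.12, and at -0.13 with DESeq2, an alternative chosen after seeing the data. Among other named genes, Fas was at 0.49 without WT replicate 1, Tspo at 0.000701 without WT replicate 2 and Fbxw7 at -0.021 without KO replicate 2. With 1 library left out in turn, the log2 fold changes ran from -0.18 to 1.10 for Bcl2, -0.36 to 0.025 for Mcl1, -1.23 to 0.12 for Bcl2a1d, -0.028 to 1.10 for Bcl2l11, -0.12 to 0.21 for Bax, -0.14 to 0.12 for Bak1, -0.84 to 0.49 for Fas, -0.63 to 0.000701 for Tspo and -0.021 to 0.61 for Fbxw7. The cause was not tested.

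Over all genes 0 were called by edgeR, against 2 with scaling by library size only, 9 without a low-count filter, 1 with DESeq2, 12 with DESeq2 without WT replicate 3, 4 at an adjusted p of 0.1, and 0 to 5 when 1 library was left out. Psip1 passed without a filter (log2 fold change -2.29, adjusted p = 0.00403), and with DESeq2 without WT replicate 3 (-2.32, adjusted p = 7.86e-08). The median of all genes was at -0.32 with DESeq2, which took in 22237 genes with no low-count filter. With DESeq2 without WT replicate 3 it was at -0.0017. With edgeR, on filtered genes, it was at 0.13 without WT replicate 1.

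Nothing states whether the replicate numbers pair the libraries. Deviations of same-numbered libraries from their genotype means correlated at -0.29, -0.03 and -0.15. These values cannot decide it, because each genotype was centred on its own few libraries and WT replicate 3 has few reads. With the replicate block 13 genes were called, Psip1 among them (-2.33, adjusted p = 0.048), and Bcl2a1d had an unadjusted p of 0.0433. Bok was at 2.62 (edgeR adjusted p = 0.122). Depth limits all values that rest on WT replicate 3, where 1 read is worth 29.9 CPM.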
